A study of Homo sapiens with 16 samples.

Results

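The peaks described here are binding sites of Argonaute 2 (Ago2) in 3′ untranslated regions (3′ UTRs), from mRNAs that carry many such sites. They were chosen by annotation and number per gene, not by their values, with earlier results of these data known. All 3′ UTR peaks of the deposited table whose gene had 5 or more of them were taken. The rule found 854 peaks in 105 genes, out of 4768 peaks in all and 2919 peaks in the 3′ UTRs of 1537 genes. These genes were thus 6.83% of the genes with a 3′ UTR peak and held 29.3% of the 3′ UTR peaks. Most other genes had few peaks, since 1007 had a single 3′ UTR peak.

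All cultures were of 293S, a line derived from human embryonic kidney and grown attached to the dish. There were 2 untreated cultures and 2 that received 1 µM hippuristanol for 30 min. Each culture gave 1 RNA-seq library and 3 CLIP libraries, made with Ago2 antibodies from Abnova, Santa Cruz and Sigma, so there were 12 CLIP libraries. CLIP (crosslinking and immunoprecipitation) fixes RNA to the protein that holds it, pulls the protein down with an antibody and reads the attached RNA fragments. The line is the single cell model used, so the values are those of these cells. Of 13 marker genes of other cell types, VIM and NEFL, intermediate filament genes known to be transcribed in 293 cells, had 3′ UTR peaks, and NEFL was among the 105 genes.

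Ago2 carries a microRNA, a short RNA whose seed pairs with a matching stretch of an mRNA, most often in the 3′ UTR. The bound mRNA is then translated less and degraded sooner. Sites that lie close together on a 3′ UTR are known to act more strongly together than alone, which makes mRNAs with many sites of interest. Hippuristanol inhibits the helicase eIF4A, which unwinds the leader of an mRNA so that ribosomes can load. The experiment asks how Ago2 contacts differ between treated and untreated cells.

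For each peak the authors' deposited table gives a normalized log average over both treatments and a log ratio, hippuristanol relative to untreated. The sources used here do not state the normalization, so a low log average need not mean weak binding. All peak values below are the authors' values from that table. The sources used here do not state the log base, and the values are therefore not turned into folds. Because the table has a single pooled value for a peak, replicates could not be compared and no difference between treatments was tested. Depth is unknown, and libraries, cultures and antibodies could not be compared. Because whole cultures were pooled, fewer cells with a transcript and less of it per cell cannot be told apart. The median log ratio over all 4718 peaks with distinct values was 0.15, and "above" and "below" refer to this level unless another is named. Intervals are 95% intervals over peaks, pairs or genes, which they treat as independent although overlapping peaks are not.

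Sites of 9 microRNAs were searched, and their mature sequences are shown because the seed defines the site. The sequences are from RefSeq (GRCh38.p14), written 5′ to 3′, with the seed (bases 2 to 8) in capitals.
hsa-miR-17-5p: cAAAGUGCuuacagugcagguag
hsa-miR-92a-3p: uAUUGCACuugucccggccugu
hsa-miR-19b-3p: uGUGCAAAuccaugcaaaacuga
hsa-miR-16-5p: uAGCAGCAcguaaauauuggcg
hsa-let-7a-5p: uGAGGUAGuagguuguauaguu
hsa-miR-30a-5p: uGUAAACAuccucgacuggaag
hsa-miR-103a-3p: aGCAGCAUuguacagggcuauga
hsa-miR-7-5p: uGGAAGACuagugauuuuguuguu
hsa-miR-18a-5p: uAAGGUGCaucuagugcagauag
The sites of miR-16 (TGCTGCT) and miR-103a (ATGCTGC) share letters, so a stretch of mRNA can hold both.

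A site was counted where the annotated 3′ UTR held, on the mRNA strand, the bases that pair with the whole seed. All 105 genes matched a GENCODE 29 transcript. For each family, the first site followed by an A is shown from the gene with the most peaks that held one and was not already used. It is shown in capitals with its flanks, as DNA letters of the mRNA strand.
MIDN, miR-17 site: gtcattatGCACTTTAcagatg
BTG2, miR-92a site: cagtcactGTGCAATAtgcccc
CCND1, miR-19b site: atagacaaTTTGCACAtcttgg
NUFIP2, miR-16 site: attaatccTGCTGCTAtgagaa
PPP1R15B, let-7 site: cagggttaCTACCTCAgtttac
NUCKS1, miR-30a site: ttttctcaTGTTTACAtccaag
ANKRD52, miR-103a site: gacctgtgATGCTGCAgacacc
KLHL15, miR-7 site: tattcttgGTCTTCCAttttaa
CCND2, miR-18a site: atagacttGCACCTTAtgtcat
Counted from the first base after the stop codon, the BTG2 site lay at 1059 to 1066 of 2164 nt and the CCND1 site at 1778 to 1785 of 3192 nt. The peaks are on hg19 and these transcripts on GRCh38, so the sites were not placed in or out of a peak.

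Seed sites were about as dense in the 3′ UTRs of these genes as in those of other genes with 3′ UTR peaks. Over the summed 3′ UTRs there were 356 sites, or 1.17 per kb, in the 105 genes and 1.13 per kb in 1421 other genes. The miR-16 site TGCTGCT was in 41.9% of the 105 3′ UTRs and 33.8% of the others, and the miR-17 site GCACTTT in 41.0% and 32.5%. The let-7 site CTACCTC was in 16.2% and 12.3%. The 3′ UTRs of the 105 genes had a median length of 2038 nt against 1630 nt, so these shares are not over equal lengths. In 17 of the 105 no site of the 9 families was found, among them CANX, described below. The most sites were in EIF2C1, which encodes Argonaute 1, with 15 in 10921 nt.

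The number of peaks per gene ran from 5 to 29 with a median of 7. BTG2, an antiproliferative gene that recruits deadenylases to mRNAs, had the most. It was followed by MIDN, the gene of the nuclear protein midnolin, and NUCKS1, a nuclear kinase substrate, with 19 each. CCND1 (cyclin D1), ANKRD52, a regulatory subunit of protein phosphatase 6, and NUFIP2, an RNA-binding partner of FMRP, had 17 each, and CCND2 (cyclin D2) and the kinase gene UHMK1 had 16 each. KLHL15, an adaptor of a ubiquitin ligase, and MAZ, a zinc finger transcription factor, had 15, BCL2L11, which encodes the proapoptotic protein BIM, had 14, and WEE1, the kinase that restrains mitosis, had 13. At the lower edge of the rule were 28 genes with exactly 5 peaks, with a median log ratio of 0.17 over 138 distinct peaks, and just outside it 53 genes with 4, with 0.15 over 208.

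The peaks took up very different shares of the 3′ UTRs. Peak length ranged from 2 to 137 nt (median 44 nt). The stretch from the first to the last peak of a gene ran from 299 nt in NEFL to 8639 nt in CDK6, a cyclin-dependent kinase. In 96 genes this stretch was no longer than the annotated 3′ UTR, and there the peaks covered a median of 14.7% of it, at 3.44 peaks per kb. HSPA1B, a heat shock protein 70 gene, had 77.8% of its 379 nt covered, ACTG1 (gamma actin) 68.0% of 682 nt, BTG2 57.8% of 2164 nt and MAZ 56.6% of 1110 nt. At the other end, peaks covered 1.33% of the 10219 nt of CDK6 and 1.50% of the 10921 nt of EIF2C1. In the other 9 genes, such as MYLIP, the stretch of peaks was longer than the matched 3′ UTR, so no share is given. HSPA1B and ACTG1 have near-identical relatives with which they may share reads, so their values are uncertain.

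Neighbouring peaks lay close together. The 854 peaks formed 749 neighbouring pairs, of which 160 (21.4%, interval 18.5 to 24.5%) overlapped by at least 1 nt, with a median of 17 shared nt. The 589 other pairs had a median gap of 111 nt (95 to 129 nt), with quartiles of 29 and 301 nt. Gaps under 50 nt were found in 193 pairs (25.8%), gaps from 50 to under 200 nt in 188, from 200 to under 1000 nt in 177 and of 1000 nt or more in 31. In genes with 2 to 4 peaks, 109 of 633 pairs (17.2%) overlapped and the median gap was 243 nt. With rows of identical values counted once, 155 of 744 pairs in the 105 genes overlapped. In genes with 2 to 4 peaks 90 of 613 then did. A closer spacing is partly built into the rule, since more peaks on a 3′ UTR of a given length must lie nearer each other.

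At the short end a single spacing was frequent. In 37 pairs of 28 genes the next peak started exactly 1 nt above the end of the one before, while a difference of 0 occurred in 6 pairs and a difference of 2 in 7. In genes with 2 to 4 peaks the same difference of 1 occurred in 15 pairs, against 1 pair at 0 and 2 at 2. If start and end are both part of a peak, these pairs touch without a gap. The sources used here do not state whether the table counts this way. Such pairs included neighbours in BTG2, MIDN, CCND1, MAZ, EIF4G2 and ZNF367, a zinc finger gene whose median gap was 1 nt.

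**Figure D1:**
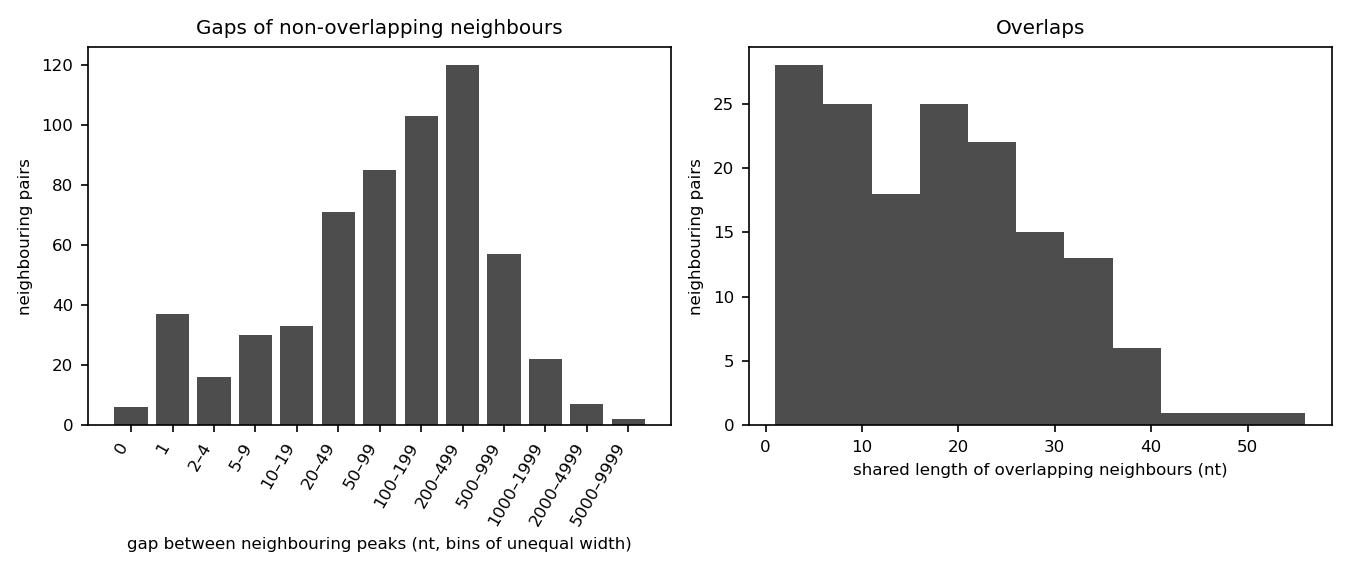
Left, number of neighbouring pairs by the gap between the peaks in nt, in bins of unequal width; right, number of overlapping pairs by shared length in nt, in bins of 5 nt. Pairs of distinct peaks in the 105 genes are shown, and the separate bar at 1 nt holds 37 pairs.

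Overlapping peaks formed 131 chains of 2 or more, which held 291 of the 854 peaks (34.1%). Of these chains 108 had 2 peaks and 23 had more. The longest chain by number had 5 peaks in PSAP, the precursor of lysosomal saposins, within 180 nt (chromosome 10, 73576401 to 73576581, minus strand, hg19). Chains of 4 peaks were in MAZ, PPP1R15B, WEE1 and ZIC2. In BTG2, 13 pairs overlapped and 4 chains had 3 peaks. Conversely, 28 genes had no overlapping pair, among them TNRC6A, an Argonaute partner in silencing, with 11 peaks. In 11 pairs one peak lay wholly inside the other. In 5 pairs, 1 each in ACVR2B, BTG2, CDK6, E2F3 and SFPQ, both rows had identical values, so these were counted once below, which left 849 peaks.

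The widest spacing was found in IGF2BP1, an mRNA-binding protein gene of fetal cells, with a median gap of 786 nt between its 7 peaks. VMA21, an assembly factor of the proton pump of lysosomes, followed with 742 nt, EIF2C1 with 705 nt and CPEB2, a regulator of polyadenylation, with 536.5 nt. The densest genes were ZNF367, then EIF4G2, a relative of the initiation factor eIF4G, with a median gap of 5 nt, MAZ with 6 nt and ACTG1 with 8 nt. Only CDK6 and ACVR2B, an activin receptor gene, had a gap over 5000 nt, of 8205 and 5741 nt.

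As a whole, these peaks had log ratios close to those of other peaks. Their median log ratio was 0.15 (0.08 to 0.19), against 0.16 (0.12 to 0.19) over the 2045 other 3′ UTR peaks, and 422 of the 849 (49.7%) lay above the median of all peaks. There were 108 peaks (12.7%) above 1, and the share over all peaks was 11.3%. Below −1 there were 38 peaks (4.48%), and the share over all peaks was 4.22%. Both shares are near those of all peaks. Taken from the median of all peaks in place of 0, 71 peaks lay more than 1 above and 56 more than 1 below. The higher ones were thus 74.0% of the peaks past 1 or −1 and 55.9% of those that far from the median of all peaks. The median log average was −6.68, against −6.38 over the other 3′ UTR peaks.

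Within a gene the peaks differed widely. From the lowest to the highest peak of a gene, the log ratio spanned a median of 1.76 (1.54 to 1.94), with 0.52 in NEFL as the narrowest and 2.98 in KLHL15 as the widest. The span was over 1 in 92 genes and over 2 in 34, and it tends to grow with the number of peaks. Peaks on both sides of the median of all peaks were found in 98 genes, and 12 genes had both a peak above 1 and a peak below −1. Both counts also rise with the number of peaks per gene. Over all peaks, 11.3% were above 1 and 4.22% below −1. The SD of the log ratio within a gene had a median of 0.60, and the SD over all peaks was 0.69. Gene medians ran from −0.80 to 1.29, with 56 above and 49 below. The log average behaved otherwise, since peaks of a gene spanned a median of 1.13 while gene medians ran from −10.4 to −3.94.

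**Figure D2:**
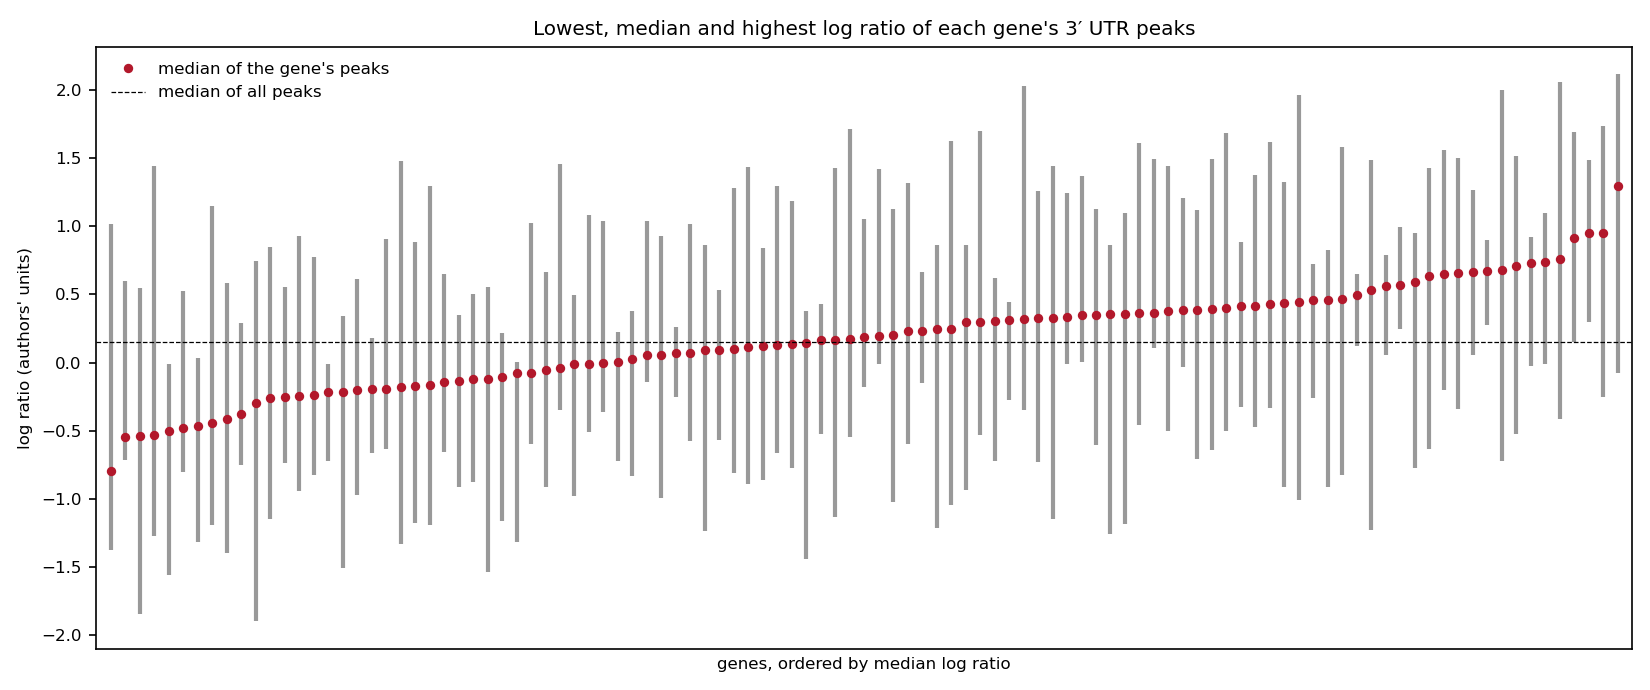
Log ratio (vertical axis, the authors' log units) of the 105 genes, ordered along the horizontal axis by the median of their 3′ UTR peaks; points are gene medians, bars run from the lowest to the highest peak, and the dashed line is the median of all peaks, 0.15. The bars of 98 genes reach both sides of the dashed line.

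Overlapping peaks were more alike than peaks that lay apart, and peaks that lay apart were nearly as unlike as peaks of different genes. The median absolute difference in log ratio was 0.37 (0.32 to 0.44) over 155 overlapping pairs with distinct values, and 0.59 (0.53 to 0.66) over the 589 others. By gap it was 0.59 under 50 nt, 0.56 from 50 to under 200 nt, 0.66 from 200 to under 1000 nt and 0.66 beyond. For peaks of the same gene that were neither neighbours nor overlapping it was 0.62 over 3097 pairs, and for peaks of different genes it was 0.66 over every pair. Overlapping peaks can draw on the same reads, and the part of this in their likeness was not tested. Over the 589 non-overlapping pairs, 244 (41.4%) had the peaks on opposite sides of the median of all peaks, against 50.1% for peaks of different genes and 27.1% for overlapping pairs.

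The correlation between neighbours was highest where peaks overlapped. Pearson's r across pairs was 0.56 for overlapping peaks, 0.22 at gaps under 50 nt (n = 193), 0.11 from 50 to under 200 nt (n = 188), 0.12 from 200 to under 1000 nt (n = 177) and 0.28 over the 31 pairs at 1000 nt or more. Spearman's correlation was 0.55, 0.22, 0.14, 0.13 and 0.25 in the same order. Peaks that shared at least 50% of the shorter one had r = 0.65 over 74 pairs, and those that shared less 0.47 over 81. The 37 pairs at exactly 1 nt had r = 0.41, and the 150 pairs at 2 to 49 nt had 0.15. These are descriptions across pairs that share genes, peaks and libraries, and the differences between them were not tested. After the median of each gene was taken off, r over the non-overlapping pairs was −0.06 in place of 0.16. Taking off a median drawn from the same few peaks itself lowers r, so this value cannot tell how alike neighbours are within a gene. For the log average, which differs mainly between genes, r was 0.88 over the non-overlapping pairs.

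**Figure D3:**
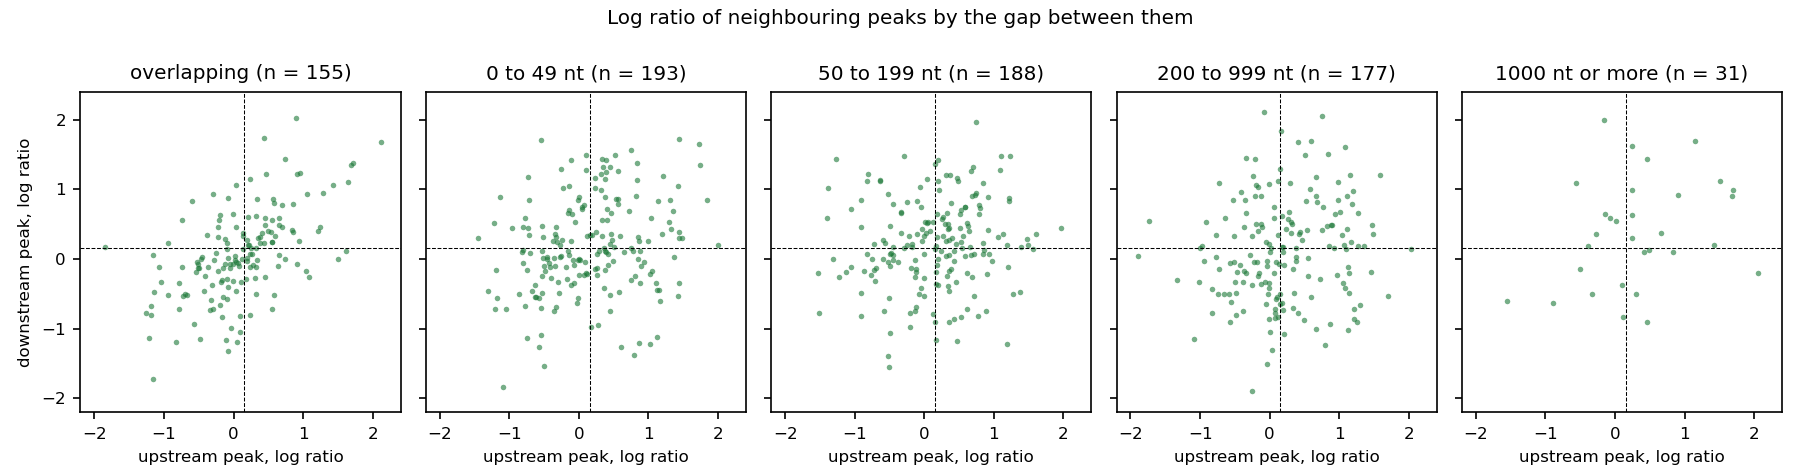
Log ratio of the downstream peak (vertical axis) against that of its upstream neighbour (horizontal axis), in the authors' log units, by gap class; each point is a neighbouring pair and dashed lines mark the median of all peaks, 0.15. Points of the 155 overlapping pairs gather along the diagonal (r = 0.56), and those of the other classes spread over all quadrants.

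The split between genes with the higher log ratio at the 5′ end and those with it at the 3′ end was near even. The downstream peak had the higher log ratio in 302 of the 589 non-overlapping pairs. The most 3′ peak was higher than the most 5′ peak in 51 genes and lower in 54, with a median difference of −0.03 (−0.42 to 0.25). The medians of these end peaks were 0.23 at the 5′ end and 0.07 at the 3′ end. The peak with the highest log average of a gene was above the median of the gene's other peaks in 52 genes and below it in 53. In 51 of the genes the coding sequence also had peaks, 127 in all, and their median lay above that of the 3′ UTR in 23 genes and below it in 28.

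Some neighbours under 50 nt apart had log ratios of opposite sign. In ADAMTS1, a secreted protease gene, peaks 18 nt apart on chromosome 21 had log ratios of −0.55 (28209198 to 28209230) and 1.71 (28209159 to 28209180). In ZNF711, an X-linked zinc finger gene, peaks 36 nt apart had 1.12 and −1.12. The peaks of LONRF1 that lay 47 nt apart had 1.02 and −1.22. ACTG1 had −1.13 and 0.89 at 36 nt, and EIF4G2 1.42 and −0.53 at 6 nt. These pairs were chosen for their difference. The log averages of these 10 peaks lay between −10.4 and −3.53, so they included peaks with low and with high log averages.

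There were also large differences between overlapping peaks. In ARHGDIA, a GTPase regulator, peaks that shared 46 nt had −1.85 and 0.17 (chromosome 17, 79826495 to 79826605 and 79826490 to 79826541). The second of these is 51 nt long in the table's coordinates, so most of it lay inside the first. In CALM3, a calmodulin gene, peaks sharing 13 nt had 1.50 and −0.0049, and in HSPA1B peaks sharing 30 nt had 1.62 and 0.11. Among the most alike pairs at gaps under 50 nt were those of MAZ, with −0.01 for both peaks at 1 nt, of KLHL15, with 0.33 for both at 3 nt, and of CALR, which encodes the chaperone calreticulin, with −0.57 and −0.56 at 24 nt.

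The 12 genes with the most peaks differed in how often neighbours lay on opposite sides, from 2 of 13 steps in BCL2L11 to 11 of 18 in NUCKS1. BTG2 ran from −0.81 to 1.28 with a median of 0.10 over 28 distinct peaks (chromosome 1, 203276560 to 203278690, plus strand), and it turned from one side of the median of all peaks to the other 12 times in 27 steps. Its peaks in the middle of the stretch included 1.28 and 0.95, next to 0.10 upstream, and its last peak had −0.75. MIDN ran from −1.18 to 0.88 with a median of −0.17, with 4 of its 19 peaks above and 6 turns in 18 steps. NUCKS1 ran from −0.89 to 1.43 with a median of 0.12. Its first 2 peaks had −0.89 and −0.63 and the next, 62 nt on, 1.14.

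In several of these genes most peaks lay on one side. BCL2L11 had 13 of 14 peaks below, from −1.40 to −0.12, and a single one above at 0.58, which lay between peaks of −1.40 and −0.48. ANKRD52 had 15 of 17 peaks below, with a median of −0.30 and a lowest value of −1.90. CCND1 ran from −0.91 to 0.35 with 12 of 17 peaks below, and no peak past 1 or −1. CCND2, the other D-type cyclin here, ran from −0.64 to 1.50 with 13 of 16 peaks above and a median of 0.39, against −0.14 in CCND1. UHMK1 had 12 of 16 peaks above, with a median of 0.76 and 2.06 at its highest, and turned 7 times in 15 steps. NUFIP2 was more evenly divided, with 10 of 17 peaks above and 9 turns in 16 steps, and its last 2 peaks had −0.70 and −0.50.

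KLHL15 changed side in blocks, with 3 turns in 14 steps. The first 7 peaks of KLHL15 lay above, from 0.33 to 1.97, the next 2 at −1.01 and −0.34, the following 3 from 0.68 to 1.22, and the last 3 from −0.87 to −0.17. MAZ ran from −1.19 to 1.15 with a median of −0.45, and 3 of its 15 peaks lay above. The 9 coding sequence peaks of MAZ had a median of −0.13. WEE1 ran from −1.53 to 0.55, and its peaks within 964 nt turned 5 times in 12 steps.

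**Figure D4:**
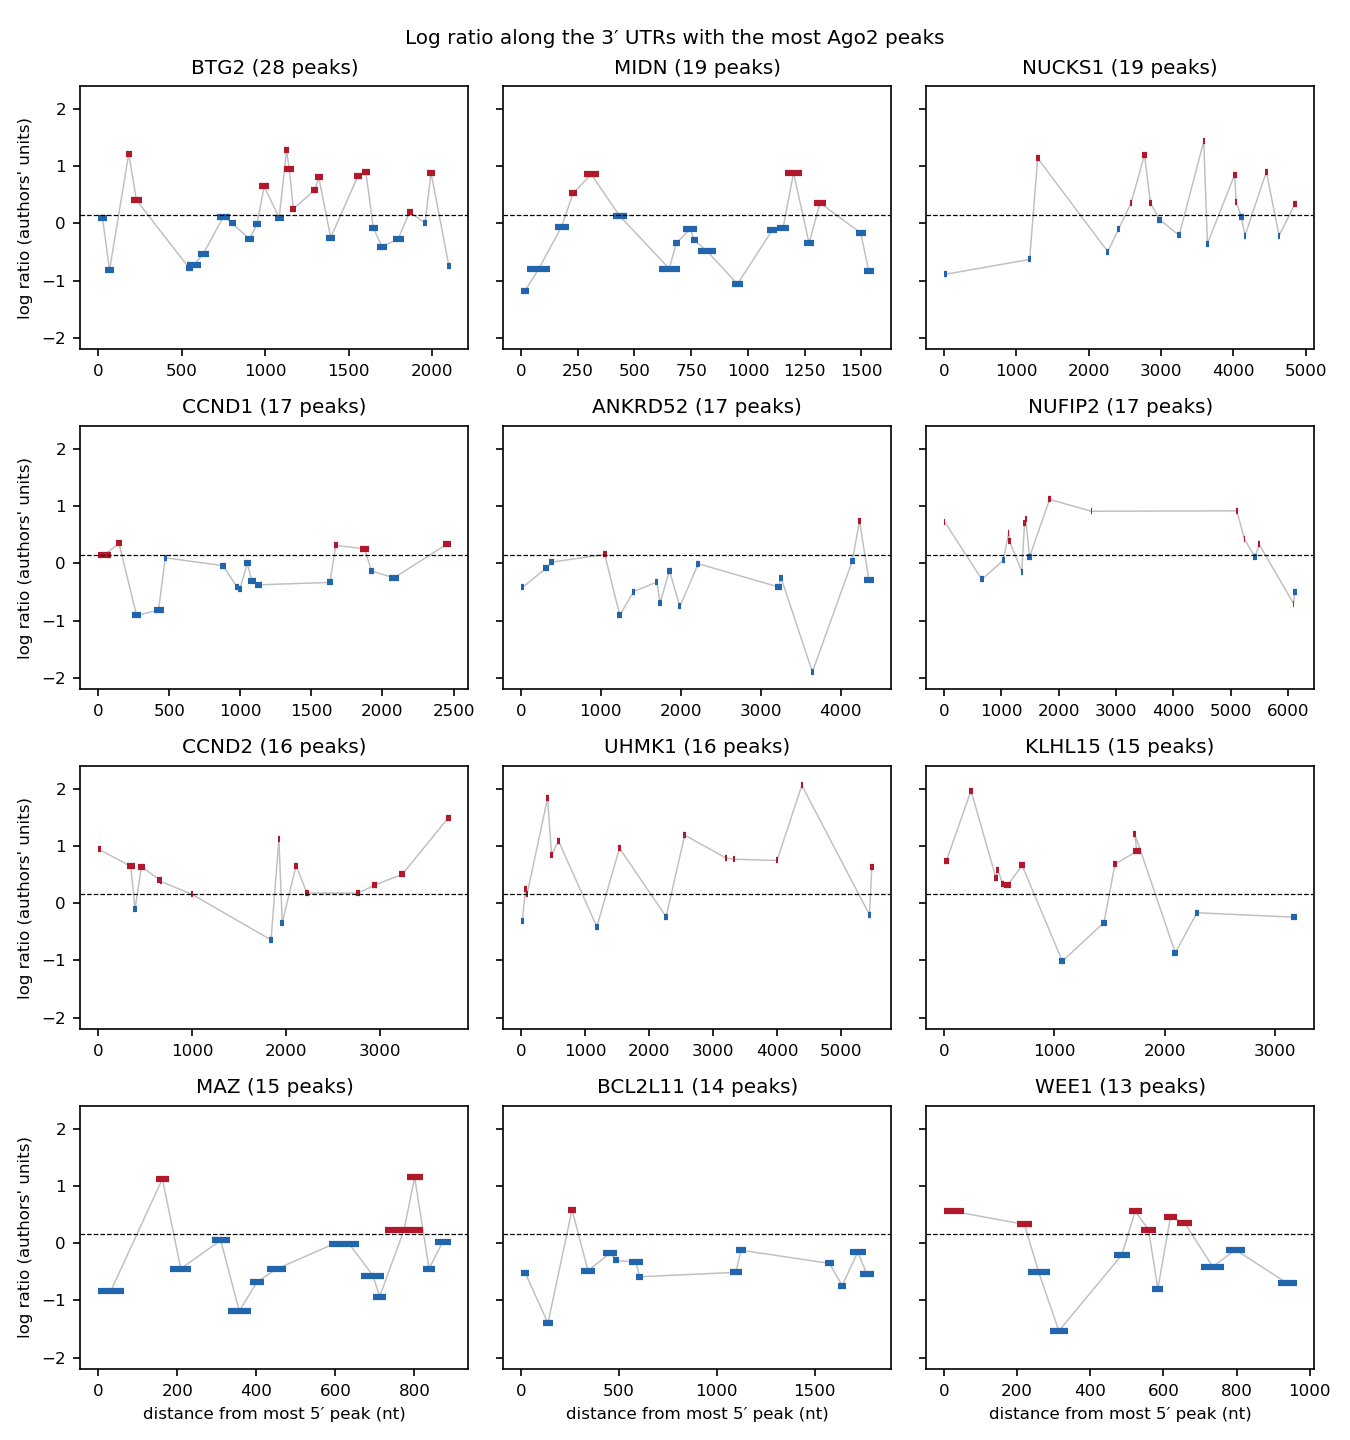
Log ratio (vertical axis, the authors' log units) of each distinct peak along the 3′ UTRs of the 12 genes with the most peaks, against distance in nt from the start of the most 5′ peak; bars span the peaks, red above and blue below the median of all peaks (dashed, 0.15), and grey lines join neighbours. BTG2 crosses the dashed line 12 times, BCL2L11 stays below it but for 1 peak.

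Few genes had all peaks on one side, and the number of peaks per gene by itself keeps that count low. How far it does so was not tested. All peaks lay above in 3 genes: CD164, a sialomucin, with 0.28 to 0.90 over 6 peaks, FZD6, a Wnt receptor, with 0.30 to 1.48 over 5, and CDK6 with 0.25 to 1.00 over 4 distinct peaks. All lay below in NRARP, a Notch-regulated inhibitor, from −1.31 to 0.04 over 7 peaks, and in H1F0, a linker histone, from −0.72 to −0.01 over 6. The same held for JARID2, a partner of Polycomb repressive complex, from −1.56 to −0.01 over 5 peaks, and NRBP1, from −1.32 to 0.00 over 5. Of these 7 genes, all but NRARP had 5 or 6 peaks in the table, near the lower limit of the rule. They were named for this property.

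The highest gene medians were those of PPP1CC, CANX, FZD6, VMA21 and UHMK1. PPP1CC, a catalytic subunit of protein phosphatase 1, had a median of 1.29 over 6 peaks, in order 1.10, 1.48, 0.28, −0.08, 2.11 and 1.69 (chromosome 12, 111157721 to 111158781, minus strand). CANX, which encodes the chaperone calnexin, had a median of 0.95 over 12 peaks. Its values along the 3′ UTR were 0.38, 0.80, 0.74, 1.43, 1.73, 1.65, 1.11, 0.43, 1.74, 1.35, 0.69 and −0.25, so 11 of 12 lay above and the last one below. CANX was among the genes with low log averages, −10.2 to −8.55, and its 2 coding sequence peaks had a median log ratio of −0.40. The values of VMA21 were 1.14, 1.69, 0.99, 0.85, 0.32 and 0.15 from 5′ to 3′, lower at each step after the second peak.

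The lowest gene medians were those of LONRF1, ARL6IP1, ARHGDIA, CBX6 and JARID2. LONRF1 had a median of −0.80 over 6 peaks, in order −0.45, 0.79, −1.38, 1.02, −1.22 and −1.14, with 4 turns in 5 steps. The last of these peaks lay wholly inside the one before it. In ARL6IP1, which encodes a protein of the endoplasmic reticulum, 6 of 7 peaks lay below with a median of −0.54, and the highest had 0.59. ARHGDIA had 4 of 9 peaks below −1, and the share over all peaks was 4.22%. CBX6, a chromobox protein of Polycomb complexes, had 5 of 6 peaks between −1.27 and −0.33, while the most 3′ peak, 50 nt further on, had 1.44.

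The widest ranges were in KLHL15, ZNF711, ACVR2B and ADAMTS5, and the narrowest in NEFL, LARP1, CD164 and H1F0. ZNF711 ran from −1.33 to 1.48 over 9 peaks and ADAMTS5, a protease that cleaves aggrecan, from −1.23 to 1.49 over 8. The distinct peaks of ACVR2B had 1.15, 1.21, −0.72, −0.16, 2.00 and 0.20 in order. LARP1, which binds the mRNAs of ribosomal proteins, had 0.30, 0.51, 0.65, 0.49 and 0.12 over a stretch of 2448 nt. NEFL ran from −0.25 to 0.26 with 5 peaks inside 299 nt.

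Gene groups give a view by function, set beside the median of 0.15 over all peaks. The lists were chosen with earlier results of these data known. From a list of 29 genes labelled small RNA machinery, 12 had a 3′ UTR peak and 5 had many: NUFIP2, TNRC6A, DICER1, CPEB2 and EIF2C1. The label is broad, since NUFIP2, with 17 peaks, is a partner of FMRP and CPEB2, with 5, a regulator of polyadenylation. The 48 peaks of the 5 genes had a median of 0.36, and 3 of the 5 gene medians lay above. Of the 48 peaks 6 were above 1 and 0 below −1, counts to be read beside 11.3% and 4.22% over all peaks. EIF2C1 ran from −0.01 to 1.10 with a median of 0.74. TNRC6A had a median of 0.44 with 8 of 11 peaks above, and its peaks of 1.25 and −0.91 were neighbours. DICER1, the enzyme that cuts microRNAs from their precursors, had a 3′ UTR median of 0.13 over 10 peaks and a median of 0.83 over as many coding sequence peaks.

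Cell cycle genes were the group with the most peaks. Of 22 listed genes 19 had a 3′ UTR peak, and 8 had many, with 101 peaks in all and a median of 0.21. Gene medians lay above in 4 and below in 4. CDKN1A (p21) and CDKN1B (p27), which restrain cyclin-dependent kinases, ran from −0.03 to 1.20 and from −0.60 to 1.31, with medians of 0.39 and 0.23. E2F3, a transcription factor of the G1 to S transition, had a median of 0.10 over its distinct peaks.

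Apoptosis genes with many peaks were BCL2L11, MCL1 and PMAIP1, out of 15 listed, with a median of −0.24 over 28 peaks. The proapoptotic PMAIP1 (NOXA) had a median of −0.38 over 5 peaks and BCL2L11 one of −0.42. The antiapoptotic MCL1 had 0.46, with values from −0.83 to 1.58, and its first 2 peaks had 1.58 and 1.21. With 3 genes, the difference between them is a description.

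RNA-binding and splicing genes had 9 genes among 36 listed, with 57 peaks and a median of 0.27, and 7 of the 9 gene medians lay above. Of the 57 peaks 5 were above 1 and 1 was below −1, and the shares over all peaks were 11.3% and 4.22%. DDX3X, an RNA helicase, had a median of 0.40 over 9 peaks, of which 3 were above 1. HNRNPA2B1, a nuclear ribonucleoprotein, ran from −1.26 to 0.87 and had the lowest median log average of the 105 genes, −10.4. IGF2BP1 had a median of 0.46, and SRSF2, a splicing factor, one of −0.48. HNRNPA2B1 and several such genes have pseudogenes that may share reads. RNA-binding genes with many peaks that were not on the list included SFPQ and PABPN1, with medians of −0.06 and −0.25. HNRNPA0 and LARP1, also not listed, had 0.35 and 0.49. All 9 genes of the group had a median log average below −6.68, the median of the 849 peaks. Spearman's correlation of log ratio with log average was −0.15 over the 849 peaks and −0.03 over all peaks. Its part in the group's median was not tested.

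Chromatin regulators had 3 of 35 listed genes, SETD5, CBX6 and JARID2, with a median of −0.10 over 19 peaks. All 3 gene medians lay below, the one of SETD5 at 0.14, where a single peak of −1.44 stood against 7 between −0.10 and 0.38. Transcription factors with many peaks were ZNF238, SOX11 and SOX4 out of 42 listed, with a median of 0.04 over 24 peaks. SOX11 and SOX4, related factors of progenitor cells, had medians of 0.24 and −0.24, and SOX11 ran from −1.05 to 1.63. MAZ, HOXA9 and other factors with many peaks were not on the list.

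Signalling genes had 4 of 43 listed, ANKRD52, PPP1R15B, ACVR2B and FZD6, with a median of 0.03 over 40 peaks. Of these 10 were above 1 and 1 was below −1, and the shares over all peaks were 11.3% and 4.22%. PPP1R15B, which directs protein phosphatase 1 to the initiation factor eIF2, had 5 of 12 peaks above 1 and a median of 0.71. ANKRD52, with its 17 peaks, weighed on the group: the median of the 4 gene medians was 0.69. The ubiquitin genes KLHL15 and UBE2Z had 20 peaks with a median of 0.52. Other genes of this pathway with many peaks were not on that list, among them the ubiquitin ligase genes MYLIP and MDM2. MYLIP had a median of −0.26 and 10 of 12 peaks below. MDM2 had a median of 0.32 and 4 of 8 peaks below, with 2.03 at its highest. HSPA1B, the heat shock gene with many peaks, had a median of 0.43 over 8. EIF4G2, the single gene of the translation list with many peaks, had a median of 0.33. Its 7 peaks within 356 nt formed 2 blocks, 4 upstream ones from 0.33 to 1.44 and 3 downstream ones from −1.15 to −0.49.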

How the data were processed

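The deposited table holds 4768 Ago2 peaks with their position, strand, annotation and 2 scores, which the authors normalized, per the file headers: a log average over both treatments and a log ratio, hippuristanol relative to untreated. The sources used here do not state the log base, normalization, peak caller, filters or how libraries were pooled. The submitters' processing notes name Bowtie 0.12.8, TopHat, DESeq and hg19, without role or order. Of 832 peaks whose gene is in GENCODE 29, 82 (9.86%) fell within the gene's GRCh38 coordinates. Positions are therefore those of the table, taken as hg19.

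Peaks of a gene were ordered 5′ to 3′ by strand, and a gap is the higher peak's start minus the lower peak's end. Rows of a gene with identical values were counted once for log ratios. The computation was tested on simulated data. The values are pooled, so no test was run. 3′ UTRs are the longest GENCODE 29 transcript matched by RefSeq identifier (100 genes) or symbol (5 genes). hsa-miR-10b-5p was not used here.

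The peaks and lists were chosen with earlier results of these data known. Named genes follow a rule: the 12 genes with most peaks, the 5 highest and 5 lowest medians, the 4 widest and 4 narrowest ranges, the 6 near pairs (gap under 50 nt) with the largest and the 4 with the smallest difference, the 3 overlapping pairs with the largest difference, the 4 smallest and 4 largest median gaps, and up to 3 genes of each list. A few genes this rule selects are left out. Other genes were named after their values were seen. Python 3.11.15, pandas 2.3.3, numpy 2.4.6, scipy 1.17.1 and matplotlib 3.10.9 were used.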

Additional observations from a re-analysis of the deposited data

How the results depend on the processing

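Of 47 values computed under alternatives for 11 results, 36 stayed inside the 95% interval of the value reported (over peaks, pairs or genes as items) or, for the number of peaks, within 1.5 times of it. A limit of 8 or 10 peaks per gene left 482 or 330 peaks. The share of overlapping pairs was 15.0% where at least 10 nt and 10.3% where at least 50% of the shorter peak had to be shared. The median distance was 158.5 nt from centre to centre, and the median gap was 93 nt in genes with 8 or more peaks. Measured from the gene's own median, 54.2% of non-overlapping neighbours lay on opposite sides, and the correlation of their log ratios after the gene's median was taken off was −0.057. A median drawn from the same few peaks itself raises that share and lowers that correlation. These values therefore cannot tell how alike neighbours are within a gene. The spread within a gene was 0.60 as an SD in place of a range. Relative to the median of all peaks, 8.36% of peaks were more than 1 above and 6.60% more than 1 below. The cause of these differences was not tested beyond what each definition sets. Counting start and end as part of a peak, and leaving out gaps of exactly 1 nt, were added after seeing the data and gave 22.2% overlapping pairs and a median gap of 125.5 nt. No paired analysis was possible because the table holds values pooled over cultures, and for the same reason no culture could be left out. Depth per library is unknown.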
